A study of Mus musculus with 2 samples.

Results

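Fatty acid metabolism was followed through 40 genes, chosen by symbol from the 32286 features that the count tables list, and every one of them was found there. They were grouped by role: 11 genes of synthesis, 8 of uptake and activation, 10 of storage and lipolysis, 8 of oxidation and 3 of phosphatidylcholine synthesis. The samples were whole lungs of female BALB/c mice, 9 to 10 weeks old, that received intravenous injections of control media (CM) or of tumor conditioned media (TCM) over 3 weeks. TCM was medium in which 4T1 mouse breast tumors had been kept, and its injection served to induce a premetastatic niche in the lung. Each group had 1 single-cell library, so no p-value was computed. The number of mice behind a library is not given in the sources used here, and differences between mice were not measured. Each interval of a gene below is a 95% interval for counting error alone. The interval beside a median over genes gives the medians of their bounds and is not a 95% interval of that median.

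Fatty acids are built from cytosolic acetyl-CoA, which Acly supplies, Acaca converts to malonyl-CoA and Fasn assembles into palmitate. Elongases (Elovl genes) lengthen the chain and desaturases (Scd1, Scd2) place a double bond in it. Cells also take fatty acids up, activate them with coenzyme A, store them as triglyceride in lipid droplets, or burn them in mitochondria after Cpt1a has passed them to carnitine. In the lung, alveolar type II (AT2) cells use fatty acids for the phosphatidylcholine of surfactant, and alveolar macrophages clear used surfactant. The comparison asked which cells carried each step of this metabolism and whether the levels differed after TCM.

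The libraries held 31944151 unique molecular identifiers (UMIs) in CM and 36648719 in TCM, and the filters left 7510 cells (median 2106 UMIs) in CM and 7267 cells (median 2297 UMIs) in TCM. Clusters were named from marker genes, and the names carry "-like" because no deposited cell annotation was used here. A difference from the study can come from these rebuilt names. Clusters whose markers were mixed or weak stayed unnamed, and they held 15.3% of kept cells in CM and 8.31% in TCM. Among them was a cluster of 264 CM and 113 TCM cells with both AT2 and alveolar type I (AT1) markers. Levels are UMIs per 100000 UMIs of a cell class (CP100k), and they are shown for 16 classes and compared between the libraries in the 14 classes with at least 100 cells in each. A ratio, given as log2 of TCM over CM, required at least 100 UMIs of the gene in the class, and "past 1.5-fold" means a level at least 1.5-fold higher or lower, with no test behind it. RNA outside cells (free RNA) came to an estimated 129.9 UMIs in each CM cell and 279.7 in each TCM cell. Summed levels of the 10 AT2 markers, in classes that should lack them, moved with it, for example from 97.5 to 242 CP100k in T-like cells and from 93.3 to 160.2 CP100k in endothelial cells outside the aerocyte class. Neutrophil-like cells made up 3.13% of the kept CM and 19.0% of the kept TCM cells.

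Promoters of 3 members show the DNA around the start of genes with their highest mean level in different cells. These were AT2-like cells for Fasn, non-aerocyte endothelial-like cells for Cd36 and alveolar macrophage-like cells for Plin2. For Cd36 the interval did not lie above that of the next class in both libraries. The sequences are RefSeq windows on build GRCm38.p6, 250 bases before to 50 bases after a transcription start, written along the gene's own strand, which was minus for all 3. The Fasn window is chr11:120824498-120824797, that of Cd36 is chr5:17835847-17836146, and that of Plin2 is chr4:86670010-86670309. The Cd36 window lies inside the annotated span of its gene. Capitals mark CCAAT (or ATTGG, the same letters on the other strand) and the palindrome CACGTG.
Fasn: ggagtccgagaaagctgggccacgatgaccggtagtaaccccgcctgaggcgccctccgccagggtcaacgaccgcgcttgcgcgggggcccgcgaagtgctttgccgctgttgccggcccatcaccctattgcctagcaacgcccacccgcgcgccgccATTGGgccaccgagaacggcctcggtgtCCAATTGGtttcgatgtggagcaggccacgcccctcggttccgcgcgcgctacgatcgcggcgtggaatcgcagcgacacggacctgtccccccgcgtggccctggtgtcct
Cd36: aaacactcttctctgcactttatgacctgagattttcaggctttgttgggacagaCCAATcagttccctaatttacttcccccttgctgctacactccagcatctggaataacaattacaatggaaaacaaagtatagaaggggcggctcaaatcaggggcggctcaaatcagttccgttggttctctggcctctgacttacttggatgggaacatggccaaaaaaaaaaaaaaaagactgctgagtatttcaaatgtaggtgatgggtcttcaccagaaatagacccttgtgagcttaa
Plin2: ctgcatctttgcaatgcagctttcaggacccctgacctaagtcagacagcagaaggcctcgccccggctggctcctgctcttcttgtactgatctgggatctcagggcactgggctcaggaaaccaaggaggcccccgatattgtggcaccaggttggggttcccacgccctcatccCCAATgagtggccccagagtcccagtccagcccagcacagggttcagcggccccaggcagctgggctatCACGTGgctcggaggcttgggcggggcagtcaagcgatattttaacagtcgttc
The Fasn window held CCAAT 3 times, 2 of them overlapping on opposite strands. The Cd36 window held it 1 time, and the Plin2 window held CCAAT 1 time and CACGTG 1 time, apart from each other. Of the 40 members, 33 had a window, and 18 of these (54.5%) held CCAAT, which 37.4% of all 32851 windows did. CACGTG was in 3 member windows (9.09%) and in 7.15% of all windows. The sterol element TCACNCCAC, on either strand, was in the windows of Acsl1 and Pcyt1a and in 1.24% of all windows. The shares of members count genes and the shares of all windows count windows, so the 2 are not in the same unit. These matches describe the letters of the windows only.

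Each gene is described by the class in which its mean level over both libraries was highest, with the CM level before the TCM level. AT2-like cells led in synthesis: their summed level of the 11 synthesis genes was 328 CP100k in CM and 371 in TCM, next came AT1-like cells with 123 and 122, and the median over the compared classes was 34.5 and 36.0. Of the 11 genes, 7 were highest in AT2-like cells. Fasn (ENSMUSG00000025153, chr11:120805846-120824547, minus strand) had 49.6 and 56.9 CP100k there, and the next class, natural killer (NK)-like cells, had 3.01 and 4.56. Scd1 (ENSMUSG00000037071, chr19:44394455-44407879, minus strand) had 124 and 152 CP100k in AT2-like cells. B-like cells came next for Scd1 with 32.1 and 28.4 CP100k, of which free RNA accounted for an estimated 3.89% and 9.11%. Its neighbor Scd2 was instead highest in AT1-like cells, at 78.2 and 76.4 CP100k against 34.2 and 40.1 in AT2-like cells, with intervals apart in both libraries. Elovl1, an elongase of very long saturated chains, reached 67.0 and 68.1 CP100k in AT2-like cells and 15.6 and 14.8 in non-aerocyte endothelial-like cells. Elovl5, which lengthens polyunsaturated chains, was spread over several classes, with 17.9 and 16.2 CP100k in non-aerocyte endothelial-like cells, 14.4 and 14.4 in AT1-like cells and 7.68 and 6.12 in AT2-like cells. Acly (17.9 and 18.5 CP100k), Me1 (9.52 and 10.6), which makes NADPH, and Srebf1 (7.60 and 8.50), a transcription factor of lipid synthesis, also led in AT2-like cells with intervals above those of the next class. Acaca led there as well (8.32 and 8.92 CP100k), but the next class by level, erythroid-like cells, rested on so few UMIs that the intervals overlapped. Elovl6 and Elovl7 had too few UMIs for a ratio in any class, and their highest levels, in NK-like cells, rested on 26 and 6 UMIs for Elovl6 and on 19 and 11 for Elovl7.

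Uptake genes divided between vessels, macrophages and AT2-like cells. Cd36 (ENSMUSG00000002944, chr5:17781690-17888801, minus strand), a fatty acid receptor of the cell surface, had 145 and 161 CP100k in non-aerocyte endothelial-like cells, 133 and 136 in aerocyte-like cells, which are the gas-exchange capillary cells, and 70.9 and 69.1 in pericyte-like cells. The intervals of the first pair overlapped in CM and lay apart in TCM. Lpl, the lipase that frees fatty acids from lipoproteins, had 112 and 118 CP100k in alveolar macrophage-like cells and 16.4 and 16.2 in non-aerocyte endothelial-like cells. Fabp5, a carrier of fatty acids in the cytosol, was shared by alveolar macrophage-like cells (108 and 79.5 CP100k) and AT2-like cells (95.4 and 87.9), and the order of the pair changed between the libraries. Among the acyl-CoA synthetases, which activate fatty acids, Acsl4 was highest in AT2-like cells (28.1 and 34.1 CP100k, with 3.89 and 5.26 in NK-like cells). Acsl5 had 17.4 and 18.3 CP100k in AT2-like cells and 15.0 and 11.3 in AT1-like cells, with intervals that overlapped in CM and lay apart in TCM. Acsl3 and Fabp4 had no class that led beyond its intervals. Neither had Acsl1, whose highest mean level, in erythroid-like cells, came from 10 and 7 UMIs.

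Of the 10 storage genes, 6 were highest in a myeloid class, 3 in alveolar macrophage-like and 3 in neutrophil-like cells. Plin2 (ENSMUSG00000028494, chr4:86648386-86670060, minus strand), a coat protein of lipid droplets, had 154 and 182 CP100k in alveolar macrophage-like cells, 43.4 and 53.5 in classical monocyte-like cells and 36.6 and 44.1 in interstitial macrophage-like cells. Lipa, the acid lipase of lysosomes, and Pparg, a nuclear receptor of lipid storage, also led in alveolar macrophage-like cells, with 44.6 and 42.2 CP100k for Lipa and 8.56 and 10.0 for Pparg. Dgat2 (ENSMUSG00000030747, chr7:99153658-99182719, minus strand), which makes triglyceride, was a gene of neutrophil-like cells: 13.7 and 18.2 CP100k there, and 3.46 and 2.90 in classical monocyte-like cells. Dgat1, the other enzyme of that step, was highest in the same cells, at 25.0 and 16.8 CP100k, but in TCM its interval met that of NK-like cells (14.7 CP100k). Mgll, which splits monoacylglycerol, stood out in aerocyte-like cells with 86.8 and 82.9 CP100k, against 26.8 and 30.1 in non-aerocyte endothelial-like cells. Gpam, the first enzyme of glycerolipid synthesis, led in AT2-like cells (10.9 and 12.3 CP100k) ahead of alveolar fibroblast-like cells (5.16 and 5.97). Agpat2, Plin3 and Pnpla2 had no leading class beyond their intervals.

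Of the role groups, oxidation had the narrowest span of summed levels over the compared classes. None of the 8 oxidation genes had a leading class whose interval lay above the next in both libraries. Such a class was found for 7 of the 11 synthesis genes, 6 of the 10 storage genes and 2 of the 8 uptake genes. The share of all genes with such a class was not counted, and it depends on the number of UMIs, so these counts do not rank the roles. The summed level of oxidation genes ran from 10.1 CP100k in neutrophil-like cells to 61.7 in aerocyte-like cells in CM, a 6.11-fold span, and from 11.0 to 61.1 in TCM, with smooth muscle-like cells highest. For synthesis the span was 27.6-fold in CM and 32.8-fold in TCM. Acadl, a dehydrogenase of long acyl chains, had for example 22.0 and 20.9 CP100k in aerocyte-like cells and 18.4 and 16.0 in AT1-like cells. Ppargc1a, a coactivator of mitochondrial genes, had too few UMIs for a ratio in any class. Of the phosphatidylcholine genes, Chka, the kinase of choline, led in AT2-like cells (25.1 and 21.5 CP100k, with 9.58 and 11.7 in AT1-like cells). Chpt1, which joins choline to diacylglycerol, was highest in AT1-like cells at 20.8 and 17.1 CP100k, beside 16.4 and 15.5 in alveolar fibroblast-like cells. Pcyt1a had no class that led beyond its interval.

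**Figure D1:**
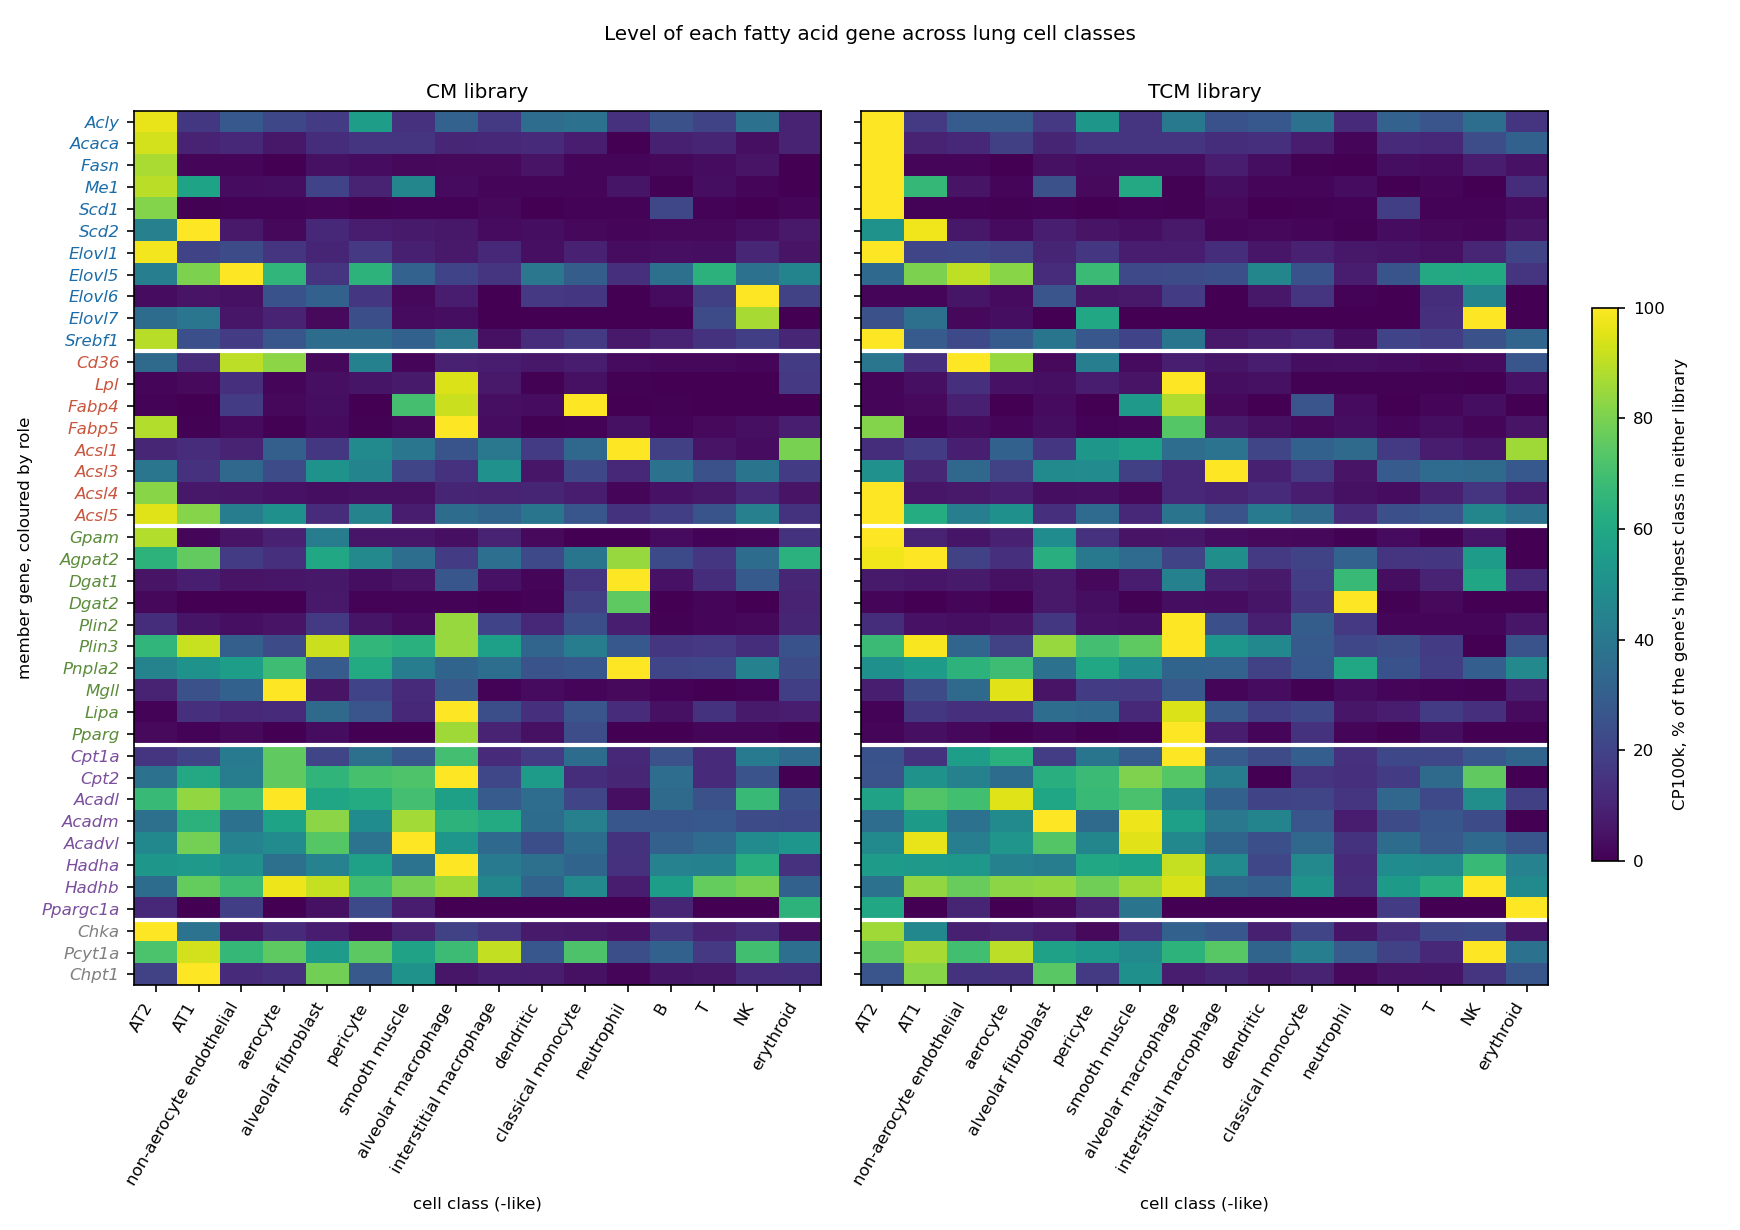
Level of each of the 40 genes (rows, coloured and separated by role) in 16 cell classes (columns), CM on the left and TCM on the right; colour gives CP100k as a percent of that gene's highest class in either library. Of the 11 synthesis genes, 7 have their highest mean level over both libraries in AT2-like cells (Fasn 49.6 and 56.9 CP100k). Of the 10 storage genes, 3 have it in alveolar macrophage-like cells, 3 in neutrophil-like cells and the rest in other classes. Oxidation genes have it in several classes.

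The next comparison asked whether levels in AT2-like cells (242 CM and 300 TCM cells, median 4370 and 5618 UMIs) differed after TCM. Differences were small. Of the 27 members with a ratio, 21 were higher and 6 lower in TCM, and 1 was past 1.5-fold in either direction, where 5.23% of all 3324 genes with a ratio were. The median log2 ratio was 0.07 (−0.21 to 0.46, the medians of the members' interval bounds), with 0.02 over all genes. The 10 AT2 markers, which include no member, had a median of 0.11, and 8 of them were higher in TCM.

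Synthesis genes had a median log2 ratio of 0.15 (−0.19 to 0.38), with 8 of 9 higher. Scd1 had 1552 UMIs (124 CP100k) in CM and 2556 UMIs (152 CP100k) in TCM, and its ratio was 0.29 (0.20 to 0.38). Scd2 went from 428 UMIs (34.2 CP100k) to 674 UMIs (40.1 CP100k), which is 0.23 (0.05 to 0.40). Fasn had 620 UMIs (49.6 CP100k) in CM and 957 UMIs (56.9 CP100k) in TCM, a ratio of 0.20 (0.05 to 0.35). These were the 3 synthesis genes with an interval above 0. The share of all genes in AT2-like cells with such an interval was not counted. Acly (224 and 311 UMIs, 17.9 and 18.5 CP100k) had 0.05 (−0.21 to 0.30). Acaca (104 and 150 UMIs, 8.32 and 8.92 CP100k) had 0.10 (−0.27 to 0.47). Me1, which feeds the reducing power for Fasn, is shown next with the regulator Srebf1. Me1 (119 and 178 UMIs, 9.52 and 10.6 CP100k) had 0.15 (−0.19 to 0.50). Srebf1 (95 and 143 UMIs, 7.60 and 8.50 CP100k) had 0.16 (−0.22 to 0.55). The steps before Fasn thus had intervals that included 0, as had the NADPH enzyme and the transcription factor. Elovl1 (838 and 1146 UMIs, 67.0 and 68.1 CP100k) had 0.02 (−0.11 to 0.15), and Elovl5 (96 and 103 UMIs, 7.68 and 6.12 CP100k) was the 1 lower synthesis gene, at −0.33 (−0.74 to 0.09).

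In uptake and activation, Acsl4 (351 and 574 UMIs, 28.1 and 34.1 CP100k) had 0.28 (0.09 to 0.48). Cd36 (698 and 1063 UMIs, 55.8 and 63.2 CP100k) had 0.18 (0.04 to 0.32). Acsl5 (218 and 307 UMIs, 17.4 and 18.3 CP100k) had 0.07 (−0.19 to 0.32), and Fabp5 (1192 and 1479 UMIs, 95.4 and 87.9 CP100k) was lower, at −0.12 (−0.23 to −0.01). The one AT2-like member past 1.5-fold was a storage gene. Agpat2 (ENSMUSG00000026922, chr2:26593057-26604417, minus strand), which adds the second acyl chain to glycerol, went from 57 UMIs (4.56 CP100k) to 116 UMIs (6.90 CP100k), a ratio of 0.60 (0.13 to 1.08). It was under 1.5-fold as a mean over cells (0.47), at Leiden resolution 2.0 (0.53), with each cell gated alone (0.52) and with the mixed AT2 and AT1 cluster added (0.44). The other storage genes had intervals that included 0. Gpam (136 and 207 UMIs, 10.9 and 12.3 CP100k) had 0.18 (−0.14 to 0.50). Pnpla2, the main triglyceride lipase (131 and 198 UMIs, 10.5 and 11.8 CP100k), had 0.17 (−0.16 to 0.50). Plin2 (296 and 405 UMIs, 23.7 and 24.1 CP100k) had 0.02 (−0.20 to 0.25). Plin3, a droplet protein of many tissues, and Mgll pointed in opposite directions. Plin3 (89 and 124 UMIs, 7.12 and 7.37 CP100k) had 0.05 (−0.35 to 0.46). Mgll (106 and 122 UMIs, 8.48 and 7.25 CP100k) had −0.23 (−0.61 to 0.16).

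The oxidation genes with a ratio in AT2-like cells had a median of 0.04 (−0.46 to 0.48), and none of the 5 intervals left 0. Their ratios ran from −0.23 (−0.52 to 0.07) for Acadl (186 and 214 UMIs, 14.9 and 12.7 CP100k) to 0.09 (−0.45 to 0.63) for Hadhb (51 and 73 UMIs, 4.08 and 4.34 CP100k). Between them lay Acadm, the medium-chain dehydrogenase (56 and 73 UMIs, 4.48 and 4.34 CP100k), at −0.05, Acadvl, the very-long-chain one (60 and 83 UMIs, 4.80 and 4.93 CP100k), at 0.04, and Hadha (83 and 116 UMIs, 6.64 and 6.90 CP100k) at 0.05. Cpt1a, the entry step, had 25 UMIs in CM and 55 in TCM in these cells, under the minimum for a ratio. In phosphatidylcholine synthesis, Chka (314 and 361 UMIs, 25.1 and 21.5 CP100k) had −0.23 (−0.45 to −0.00). Pcyt1a, the enzyme that sets the pace of that pathway (66 and 93 UMIs, 5.28 and 5.53 CP100k) had 0.07 (−0.40 to 0.54). Chpt1 (51 and 92 UMIs, 4.08 and 5.47 CP100k) had 0.42 (−0.09 to 0.95).

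**Figure D2:**
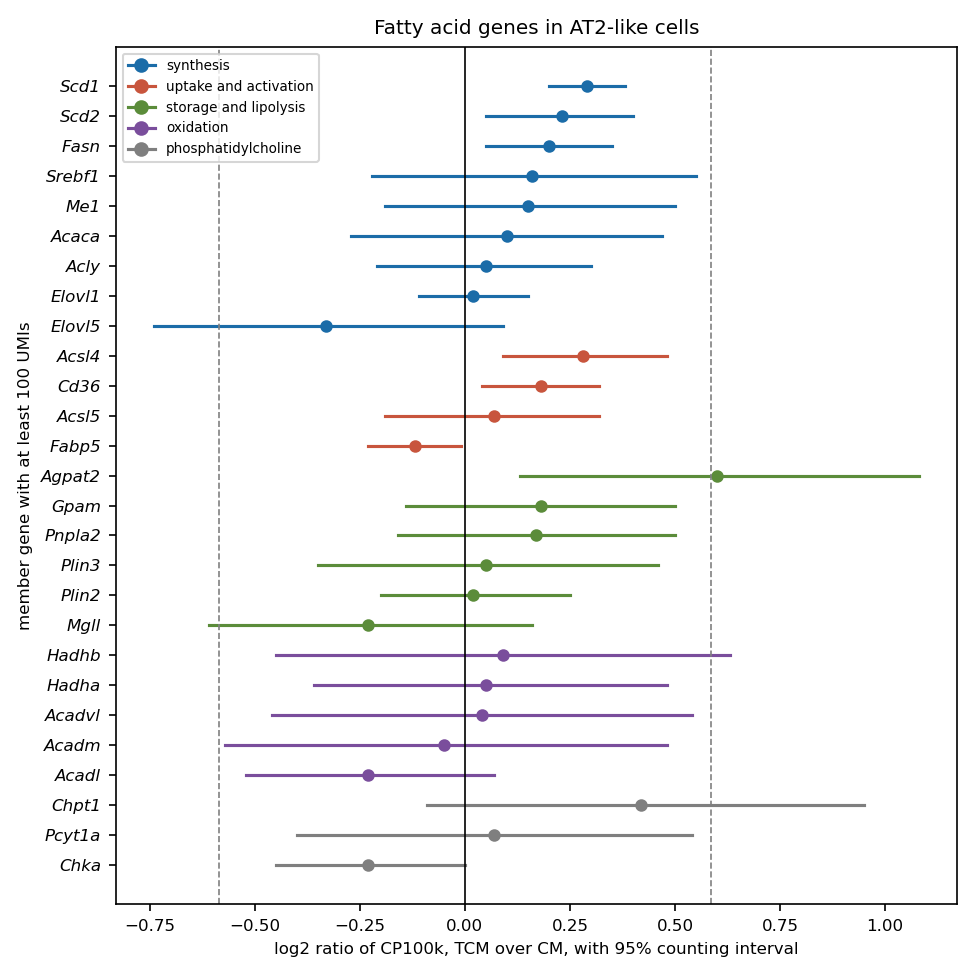
Log2 ratio of CP100k, TCM over CM, for the 27 genes with at least 100 UMIs in AT2-like cells, with 95% counting intervals and colours by role; dashed lines mark 1.5-fold. Scd1, Scd2, Fasn, Acsl4, Cd36 and Agpat2 have intervals above 0, Fabp5 and Chka have intervals below 0, and only the point of Agpat2 lies past a dashed line. The share of all genes with an interval apart from 0 was not counted.

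The size of the AT2 ratios moved with which cells were counted as AT2-like. With the mixed AT2 and AT1 cluster added, Scd1 reached 0.55, Fasn 0.49 and Acsl4 0.58, and when each cell was gated alone these values were 0.58, 0.51 and 0.55. In those same cells the 10 AT2 markers were all higher in TCM, with a median of 0.34 with the mixed cluster and 0.35 when gated, and the median depth was 3300 CM against 5298 TCM UMIs and 2056 against 5298 UMIs. Summed AT1 markers in them were 782 CP100k in CM and 549.7 in TCM with the mixed cluster. Fabp5 and Chka, lower in the AT2-like cluster, were at 0.13 and 0.02 with the mixed cluster added. The part of cell purity and depth in the synthesis ratios was not tested. Of the other pathway genes, 32 had a ratio in AT2-like cells, with a median of 0.09, and 1 was past 1.5-fold: Lpcat3, which puts polyunsaturated chains into phosphatidylcholine, at 0.61 (0.04 to 1.19) on 40 and 82 UMIs.

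Across the 14 compared classes, 213 pairs of member and class had a ratio, and 13 of them (6.10%) were past 1.5-fold, 8 higher and 5 lower in TCM, where 6.41% of the 48868 ratios of all genes in these classes were, so the members' share was not above that of all genes. At least 1 member was past 1.5-fold in 8 classes. Of the 13, 7 stayed past 1.5-fold under every alternative processing that gave a value and 6 did not. Chka in non-aerocyte endothelial-like cells is among the 7, but its lowest alternative, 0.58, only met the rounded threshold. The larger cluster of that class alone had too few Chka UMIs for a ratio (28 and 41), and its levels were close, at 1.12 CP100k in CM and 1.34 in TCM. In the other 6 classes (AT1, aerocyte, pericyte, interstitial macrophage, B and NK) none of 55 ratios was, where 4.81% of all genes in those classes were. Medians of the role groups with at least 3 ratios lay between −0.38, for uptake in smooth muscle-like cells, and 0.36, for storage in the same cells. The medians of the interval bounds lay on both sides of 0 for each of them. Such a span is as wide as that of a typical single gene and does not show whether a role group as a whole differed. For summed UMIs, the interval lay for example above 0 for synthesis in AT2-like cells (0.18, 0.12 to 0.24). That sum went from 328 CP100k in CM to 371 in TCM, and Scd1 alone from 124 to 152. The other pathway genes of synthesis, none of them members, had a summed ratio of 0.03 (−0.06 to 0.11) in these cells. For uptake in alveolar macrophage-like cells the interval lay below 0 (−0.13, −0.20 to −0.06). That sum went from 258 CP100k in CM to 235 in TCM, and Fabp5 alone from 108 to 79.5. Of the 7 uptake genes with a ratio there, 4 were higher and 3 lower, with a median of 0.08. For oxidation in AT2-like cells the interval of the sum included 0 (−0.00, −0.17 to 0.17). Such sums follow the genes with the most UMIs and do not stand for each gene of a role group.

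**Figure D3:**
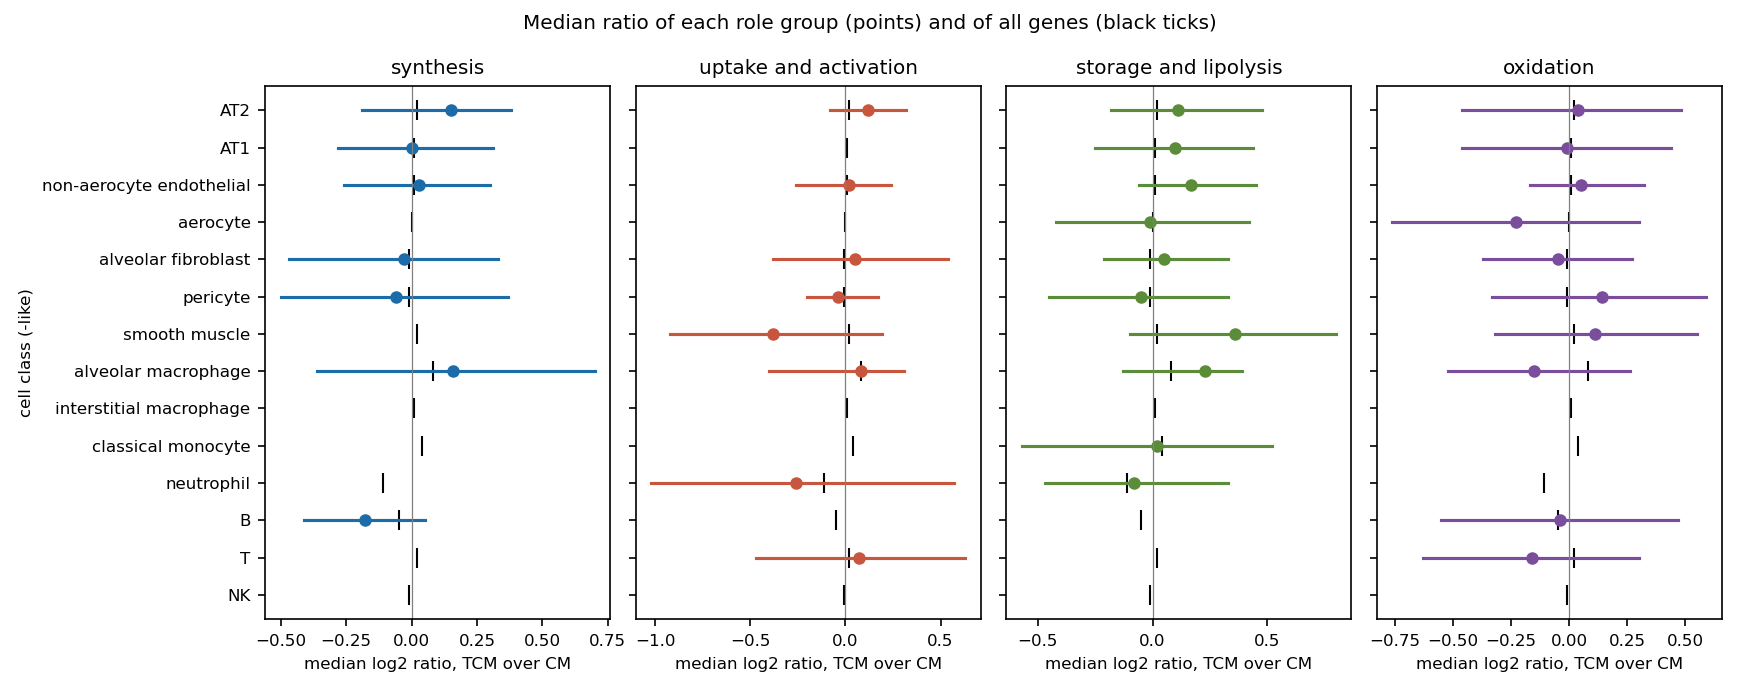
Median log2 ratio, TCM over CM, of the synthesis, uptake, storage and oxidation genes (points, 1 panel each) in the compared classes with at least 3 genes measured; lines span the medians of the interval bounds, and black ticks give the median of all genes in the class. Every line crosses 0, and the ends of the range are −0.38 and 0.36, both in smooth muscle-like cells.

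Neutrophil-like cells (235 CM and 1378 TCM cells, median 1237 and 1552 UMIs) had both higher and lower members. Of 8 members with a ratio 4 were past 1.5-fold, 2 in each direction, in a class where 34.3% of all 2387 genes were. Plin2 went from 52 UMIs (15.4 CP100k) to 692 UMIs (30.0 CP100k), a ratio of 0.96 (0.55 to 1.39). Pnpla2 (ENSMUSG00000025509, chr7:141455198-141460743, plus strand), the lipase that opens triglyceride stores, went from 79 UMIs (23.5 CP100k) to 323 UMIs (14.0 CP100k), at −0.75 (−1.10 to −0.37). Of these 2 genes, the droplet coat gene was thus higher and the droplet lipase gene lower in TCM. The pair does not stand for its role group: the summed level of the storage genes was 94.2 CP100k in CM and 89.1 in TCM, at −0.08 (−0.25 to 0.10). Acsl1 (ENSMUSG00000018796, chr8:46471037-46536051, plus strand) went from 38 UMIs (11.3 CP100k) to 90 UMIs (3.90 CP100k), at −1.53 (−2.10 to −0.95), and 63.2% of its CM UMIs came from 10 cells. Elovl1 had 8 UMIs (2.38 CP100k) in CM and 101 (4.38 CP100k) in TCM, 0.88 (−0.15 to 2.13), of which free RNA made up an estimated 37.8% and 44.3%. The triglyceride synthases pointed in opposite directions. Dgat1 (84 and 387 UMIs, 25.0 and 16.8 CP100k) had −0.57 (−0.92 to −0.22). Dgat2 (46 and 419 UMIs, 13.7 and 18.2 CP100k) had 0.41 (−0.03 to 0.88), an interval that included 0. The remaining members with a ratio, Cd36 and Fabp5, had an estimated 131% and 36.9% of their TCM UMIs from free RNA. Of 13 other pathway genes, 3 were past 1.5-fold higher and 4 lower. Dbi, which binds acyl-CoA, went from 31 to 339 UMIs (9.21 to 14.7 CP100k, 0.67, 0.14 to 1.25), and Ppard, a nuclear receptor for fatty acids, from 7 to 96 UMIs (2.08 to 4.16 CP100k), with an interval of the ratio from −0.10 to 2.35. Mid1ip1, which activates acetyl-CoA carboxylase, went from 27 to 74 UMIs (8.02 to 3.21 CP100k, −1.32, −1.98 to −0.63), and Tecr, a reductase of chain elongation, from 78 to 278 UMIs (23.2 to 12.0 CP100k, −0.94, −1.31 to −0.56). Free RNA made up an estimated 11.0% of the Mid1ip1 UMIs in CM and 49.5% in TCM, 5.0% and 21.9% of those of Tecr, 28.8% and 32.7% of those of Dbi, and 4.38% and 11.2% of those of Ppard. One of the 2 neutrophil-like clusters held 8 CM and 185 TCM cells, and without it Plin2 had 0.95, Pnpla2 −0.72 and Acsl1 −1.61. The 10 neutrophil markers had a median of 0.34, and 9 were higher in TCM.

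Alveolar macrophage-like cells (292 CM and 320 TCM cells) had 26 members with a ratio and 2 past 1.5-fold, both higher, where 5.43% of all 3903 genes were past it. Dgat1 (ENSMUSG00000022555, chr15:76502015-76511953, minus strand) went from 92 UMIs (6.73 CP100k) to 166 UMIs (11.0 CP100k), a ratio of 0.70 (0.33 to 1.09). Chka (ENSMUSG00000024843, chr19:3851773-3894369, plus strand) went from 68 UMIs (4.98 CP100k) to 118 UMIs (7.79 CP100k), at 0.65 (0.21 to 1.10). At a mitochondrial maximum of 5% both were under 1.5-fold, Dgat1 at 0.57 and Chka at 0.52, and Chka was also at 0.57 with each cell gated alone. Below that threshold, Cpt1a (124 and 195 UMIs, 9.07 and 12.9 CP100k) had 0.51 (0.17 to 0.84) and Plin2 (2110 and 2758 UMIs, 154 and 182 CP100k) had 0.24 (0.16 to 0.32). Fabp5 (1480 and 1203 UMIs, 108 and 79.5 CP100k) was lower, at −0.45 (−0.56 to −0.34). Storage genes in these cells had a median of 0.23 (−0.13 to 0.39), with 5 of 7 higher, and oxidation genes −0.15 (−0.52 to 0.26), with 4 of 6 lower, beside 0.08 over all genes. Of the enzymes that follow Cpt1a in oxidation, Acadl (171 and 158 UMIs, 12.5 and 10.4 CP100k) had −0.26 (−0.58 to 0.06), and Hadhb (136 and 165 UMIs, 9.95 and 10.9 CP100k) had 0.13 (−0.20 to 0.47).

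Classical monocyte-like cells (176 CM and 251 TCM cells, median 2430 and 4646 UMIs) had 8 members with a ratio and 1 past 1.5-fold, where 17.0% of all 2442 genes were past it. Cd36 had 69 UMIs (12.6 CP100k) in CM and 70 UMIs (5.97 CP100k) in TCM, at −1.07 (−1.57 to −0.57). Free RNA made up an estimated 18.9% of these in CM and 53.0% in TCM, and 10 cells held 50.7% and 52.9% of them. With free RNA subtracted the ratio was −1.84. Plin2 (238 and 627 UMIs, 43.4 and 53.5 CP100k) had 0.30 (0.09 to 0.52). The 8 classical monocyte markers had a median of 1.04 and all were higher in TCM, and the part of monocyte makeup in these ratios was not tested.

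**Figure D4:**
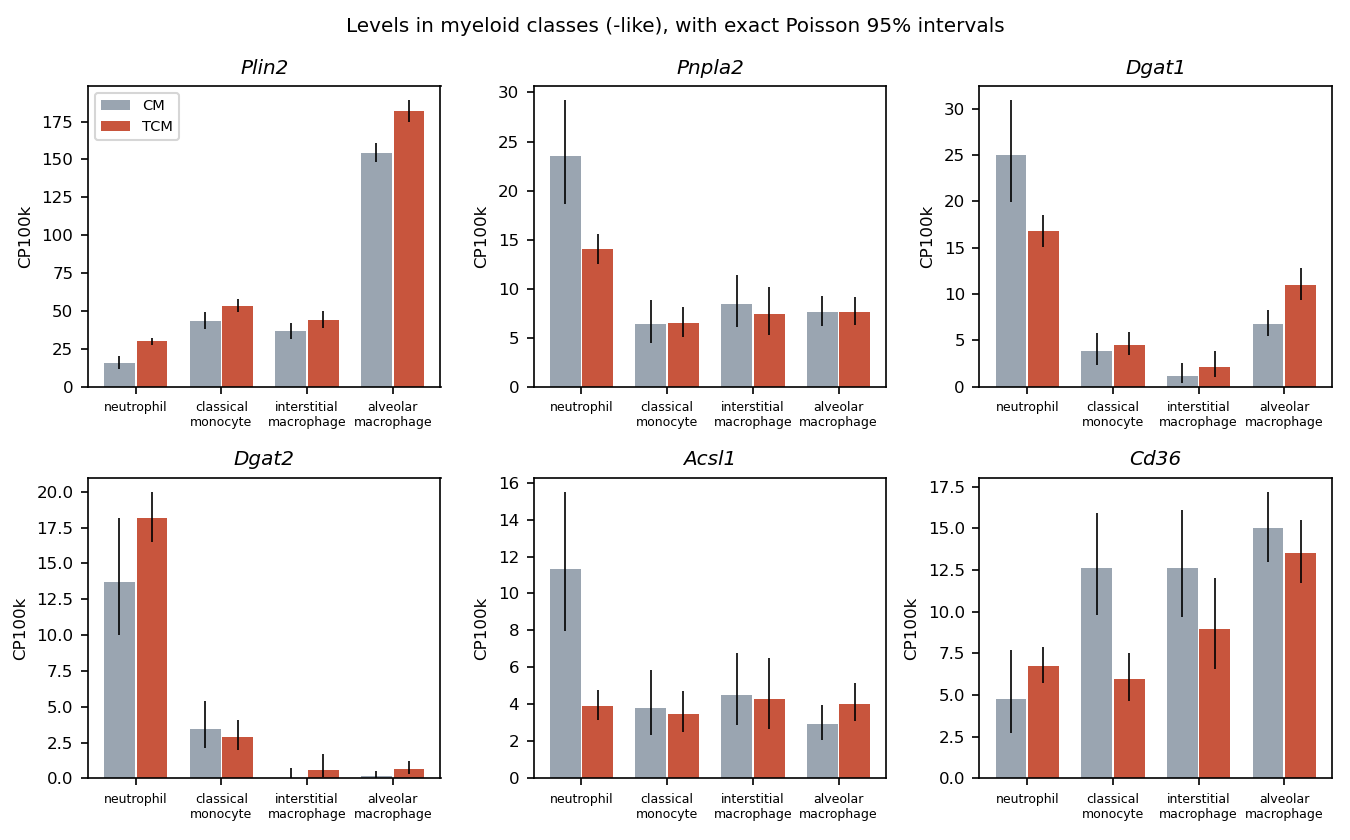
CP100k of 6 genes in 4 myeloid classes, CM in grey and TCM in red, bars from 0 with exact Poisson 95% intervals. In neutrophil-like cells Plin2 is higher in TCM (15.4 and 30.0 CP100k) while Pnpla2 (23.5 and 14.0) and Acsl1 (11.3 and 3.90) are lower, and in alveolar macrophage-like cells Dgat1 is higher (6.73 and 11.0).

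Non-aerocyte endothelial-like cells (1298 CM and 1399 TCM cells) were the most deeply counted class, with 3907151 and 4925102 UMIs. Of 30 members with a ratio 22 were higher and 8 lower, and 2 were past 1.5-fold, where 3.53% of all 8020 genes were. Chka went from 56 UMIs (1.43 CP100k) to 107 UMIs (2.17 CP100k), at 0.60 (0.12 to 1.09). Fabp4 had 63 UMIs (1.61 CP100k) in CM and 41 (0.832 CP100k) in TCM, at −0.95 (−1.56 to −0.36), but 10 cells held 81.0% and 90.2% of them, and with each cell gated alone it was at −0.50, under 1.5-fold. Members with more UMIs were close to their CM level. Cd36 (5658 and 7934 UMIs, 145 and 161 CP100k) had 0.15 (0.10 to 0.20), Mgll (1047 and 1480 UMIs, 26.8 and 30.1 CP100k) had 0.17 (0.05 to 0.28), and Pnpla2 (514 and 751 UMIs, 13.2 and 15.2 CP100k) had 0.21 (0.05 to 0.38). Cpt1a (ENSMUSG00000024900, chr19:3322334-3385733, plus strand; 207 and 357 UMIs, 5.30 and 7.25 CP100k) had 0.45 (0.20 to 0.71), while the other oxidation genes there lay between −0.05 and 0.17 with intervals that included 0. Of the 60 other pathway genes measured there, 6 were past 1.5-fold, all higher in TCM. The largest among them were Fabp3, a fatty acid carrier of oxidative tissues, from 41 to 157 UMIs (1.05 to 3.19 CP100k, 1.60, 1.10 to 2.14), and Thrsp, a gene of lipid synthesis, from 41 to 103 UMIs (1.05 to 2.09 CP100k, 0.99, 0.46 to 1.55). A cluster led by the stress genes Ier3 and Atf3 held 26.6% of these cells in CM and 36.0% in TCM. Chka had 1.99 and 3.56 CP100k in that cluster and 1.12 and 1.34 in the other.

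Alveolar fibroblast-like cells (918 CM and 644 TCM cells) had 31 members with a ratio, 12 higher and 19 lower, and 1 past 1.5-fold, where 3.03% of all 6496 genes were. It was Scd1, with 71 UMIs (2.26 CP100k) in CM and 38 (1.45 CP100k) in TCM, at −0.65 (−1.26 to −0.06), of which free RNA made up an estimated 34.5% and 94.6%. The 2 clusters of the class pointed opposite ways, from 2.56 to 1.18 CP100k in the one with 743 CM and 494 TCM cells and from 1.39 to 2.20 in the other, and a mean over cells gave −0.52, under 1.5-fold. Scd2 (281 and 169 UMIs, 8.96 and 6.43 CP100k) had −0.48 (−0.76 to −0.20). Pnpla2 (211 and 231 UMIs, 6.73 and 8.79 CP100k) had 0.39 (0.11 to 0.66), and Acadm (318 and 322 UMIs, 10.1 and 12.2 CP100k) had 0.27 (0.04 to 0.50). Of 63 other pathway genes, 4 were past 1.5-fold, all higher, and the largest were Pdk4, which holds pyruvate back from oxidation (77 and 117 UMIs, 2.45 and 4.45 CP100k, 0.86, 0.43 to 1.29), and Lpin1, a phosphatidate phosphatase (92 and 131 UMIs, 2.93 and 4.98 CP100k, 0.76, 0.37 to 1.17). Pdk4 was past 1.5-fold in smooth muscle-like cells too, from 31 to 73 UMIs (3.28 to 7.80 CP100k, 1.25, 0.63 to 1.91).

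Smooth muscle-like cells had 15 members with a ratio and 1 past 1.5-fold, where 5.21% of all 2881 genes were. Their 7 own markers had a median of 0.35 and all were higher in TCM, a cell held a median of 2622 UMIs (CM) or 4128 UMIs (TCM), and summed neutrophil markers in them were 6.66 and 115 CP100k. The part of these shifts in the ratios of Hadha and Pdk4 was not tested. Hadha, a subunit of the mitochondrial trifunctional protein, went from 45 UMIs (4.76 CP100k) to 68 UMIs (7.26 CP100k), at 0.61 (0.05 to 1.19). As a mean over cells this ratio was 0.15, and it was also under 1.5-fold at a mitochondrial maximum of 5% (0.57) and with each cell gated alone (0.53). Its partner Hadhb (87 and 93 UMIs, 9.20 and 9.93 CP100k) had 0.11 (−0.33 to 0.55). T-like cells had 13 members with a ratio and 1 past 1.5-fold, where 3.54% of all 4011 genes were. Chka went from 44 UMIs (2.41 CP100k) to 72 UMIs (5.34 CP100k), at 1.15 (0.59 to 1.72), the largest ratio upward of any member in any compared class. In the larger of the 2 T-like clusters, which held 87.2% of the T-like cells in CM and 73.6% in TCM, Chka had 35 and 53 UMIs (2.0 and 4.38 CP100k). In the smaller, which held 12.8% and 26.4%, it had 9 and 19 UMIs (12.0 and 13.7 CP100k), a higher level with a smaller difference. Chka had a ratio in 6 classes and was past 1.5-fold in 3 of them, T-like, alveolar macrophage-like and non-aerocyte endothelial-like cells, each time higher, and it was below its CM level in AT2-like cells, where it was highest. AT1-like cells, next to AT2-like cells in the level of synthesis genes, had a median over 20 members of −0.00 (−0.28 to 0.34). Acsl5 (188 and 143 UMIs, 15.0 and 11.3 CP100k) had −0.41 (−0.73 to −0.09) there and Chpt1 (261 and 216 UMIs, 20.8 and 17.1 CP100k) had −0.29 (−0.55 to −0.02).

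Over all kept cells of a library, 2 members were at least 1.5-fold higher in TCM, where 4.44% of all 13137 genes were, and none of the 40 was at least 1.5-fold lower, where 3.57% were. Dgat2 went from 145 UMIs (0.594 CP100k) to 551 UMIs (2.22 CP100k), a ratio of 1.90 (1.64 to 2.18), and Dgat1 from 584 UMIs (2.39 CP100k) to 982 UMIs (3.96 CP100k), at 0.73 (0.58 to 0.88). Neutrophil-like cells held 31.7% of all Dgat2 UMIs in CM and 76.0% in TCM. The 14 classes were then given the same weight in both libraries, their mean share of UMIs, so that their shares no longer entered the ratio. Cells outside the 14 classes, the unnamed ones included, were left out of this ratio but counted among all kept cells. How much of the gap between the 2 ratios came from leaving them out was not tested. Dgat2 came to 0.39 (0.06 to 0.72) and Dgat1 to 0.02 (−0.16 to 0.20), which is 1.51 and 0.71 below their log2 ratios over all kept cells. At these fixed weights none of the 40 members was past 1.5-fold, where 2.77% of all genes were higher and 1.87% lower. The storage genes had a median of 0.19 (0.06 to 0.33) over all kept cells and 0.06 (−0.05 to 0.22) at fixed weights. Oxidation genes had −0.10 (−0.25 to 0.05) and 0.02 (−0.13 to 0.16), and synthesis genes 0.07 (−0.13 to 0.17) and 0.11 (−0.07 to 0.23). Scd1 (0.21 and 0.19) and Fasn (0.20 and 0.19) kept nearly the same ratio both ways. AT2-like cells held 53.9% of all Scd1 UMIs in CM and 75.4% in TCM. In these shares the mixed AT2 and AT1 cluster counts as unnamed. With it, the AT2-like cells would number 506 in CM and 413 in TCM in place of 242 and 300, so the rise in the share cannot be read apart from the naming of cells. Cpt1a had 0.27 and 0.25, whereas Acsl1 had 0.10 (−0.07 to 0.26) over all cells and −0.15 (−0.36 to 0.06) at fixed weights.

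**Figure D5:**
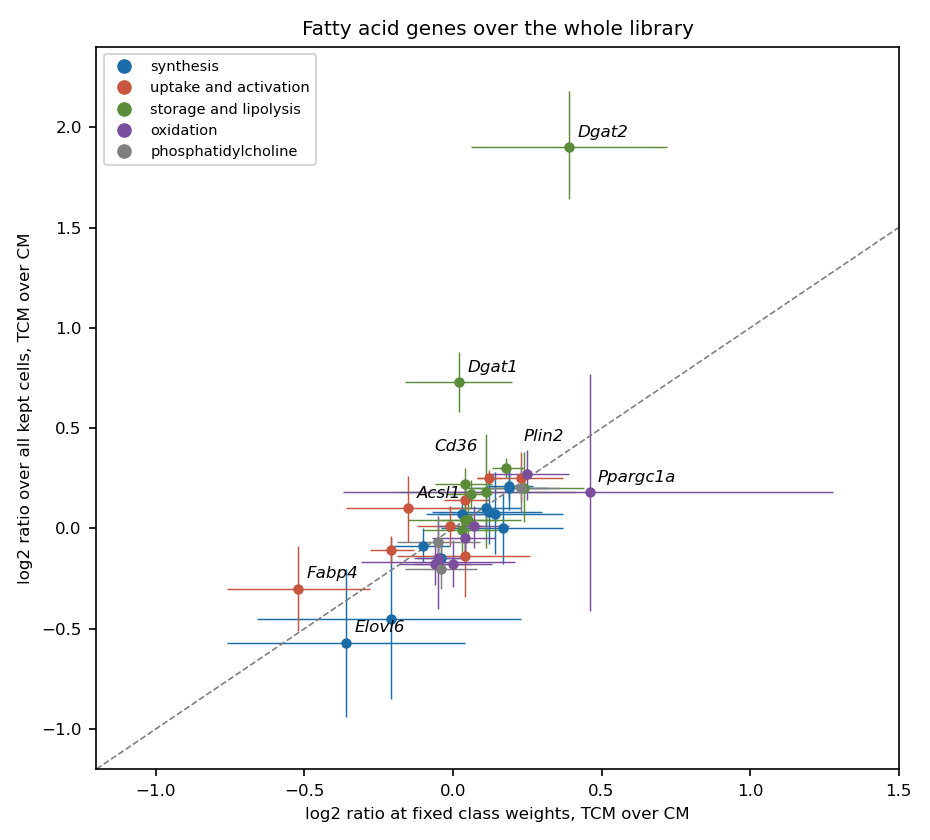
Log2 ratio over all kept cells (vertical axis) against the ratio at fixed class weights (horizontal axis) for the 40 genes, TCM over CM, with 95% counting intervals and colours by role; the dashed line marks equal values. Dgat2 (1.90 and 0.39) and Dgat1 (0.73 and 0.02) stand far above the line.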

How the data were processed

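Single-cell RNA of whole lung was analysed in 2 libraries, CM and TCM, grouped by their treatment label. The authors made the libraries with a 5-prime droplet kit, mapped reads with Cell Ranger to mm10 (GRCm38.p6), and deposited raw UMI counts for all 737280 barcodes, without normalization. The header names version 4. The number of mice per library is not given in the sources used here.

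Cells had at least 500 UMIs, 200 genes and at most 10% mitochondrial UMIs, as the study describes, leaving 7988 CM and 7707 TCM cells, of which 93 barcodes occurred in both. Scrublet's own threshold marked 0% of cells, so it had not worked, and cells in the top 6% of scores were removed (5.98% and 5.71%). Clustering (scanpy 1.11.5, 1000 variable genes, 50 components, Leiden at resolution 1.0) used no member or other pathway gene and gave 38 clusters. A cluster took a name where its markers' mean log2 fold was at least 2, led the next class by 0.5 and had 3 detected markers. These rules were set after clusters were seen, and 13 clusters stayed unnamed. Members, roles, marker lists and 115 other pathway genes were chosen with earlier results of these data known. All members could be named. Values were given in full for members past 1.5-fold, and in AT2-like cells for every member with a ratio, other members below that threshold being chosen after their values were seen. Of the other pathway genes, at most 2 per direction and class were named.

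Intervals were exact Poisson for sums and conditional binomial for ratios, and the ratio step was tested on simulated data. Free RNA was profiled in droplets of at most 50 UMIs and scaled by 7 haemoglobin and airway secretory genes. Coordinates are from GENCODE vM21 of GRCm38. The alternatives tried were 8 planned ones and 2 added after the clusters were seen.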

Additional observations from a re-analysis of the deposited data

Results flagged for a closer look

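For 6 members the counting interval of the ratio lay above 0 in one class and below 0 in another. The share of all genes that met this condition was not counted, so the 6 cannot be called many or few. The differences between classes were not tested, and no explanation was weighed. Scd1 had 0.29 in AT2-like cells and −0.65 in alveolar fibroblast-like cells, and Scd2 had 0.23 and −0.48 in the same classes. In the fibroblast-like cells free RNA made up an estimated 34.5% of the Scd1 UMIs in CM and 94.6% in TCM. Cd36 had 0.18 in AT2-like and 0.15 in non-aerocyte endothelial-like cells but −1.07 in classical monocyte-like cells. Dgat1 had 0.70 in alveolar macrophage-like cells and −0.57 in neutrophil-like cells. Pnpla2 had 0.21 in non-aerocyte endothelial-like and 0.39 in alveolar fibroblast-like cells but −0.75 in neutrophil-like cells. Chka had 0.60 in non-aerocyte endothelial-like, 0.65 in alveolar macrophage-like and 1.15 in T-like cells but −0.23 in AT2-like cells, where the upper bound of its interval was −0.00. As a mean over cells, Chka in AT2-like cells was at 0.06.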

How the results depend on the processing

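Of the medians over all members, 1 moved: in pericyte-like cells it was 0.44, over 3 genes, with Leiden clusters at resolution 2.0, where the main value was 0.01 over 14, and the cause was not tested beyond the fewer genes. No result reversed its sign past 1.5-fold. The medians of role groups that moved were uptake in pericyte-like cells, at −0.26 with doublets kept and −0.27 at a mitochondrial maximum of 5%, storage over the whole library, at 0.02 as a mean over cells, and synthesis in B-like cells, at 0.42 with a minimum of 20 UMIs. In AT2-like cells a mean over cells gave 0.15 for Scd1 and 0.06 for Chka, and resolution 2.0 gave 0.39 for Scd1 and 0.01 for Fabp5. Gating each cell alone gave 0.26 for Elovl1, 0.16 for Fabp5 and 0.01 for Chka there, and adding the mixed cluster gave 0.36, 0.26, 0.13 and 0.02 for Acly, Elovl1, Fabp5 and Chka. The Fabp5 and Chka differences in AT2-like cells therefore depended on how those cells were defined. Of the 13 ratios past 1.5-fold, 6 went under it in at least 1 alternative: Agpat2 in AT2-like cells (0.44 to 0.64 over its alternatives), Hadha in smooth muscle-like cells (0.15 to 0.67), Dgat1 (0.57 to 0.94) and Chka (0.52 to 0.84) in alveolar macrophage-like cells, Scd1 in alveolar fibroblast-like cells (−0.65 to −0.52, with a value in 3 alternatives only) and Fabp4 in non-aerocyte endothelial-like cells (−1.29 to −0.50). The cause was not tested. Cd36 in classical monocyte-like cells came to −1.84 after free RNA was subtracted. With the largest cluster of the class only, the neutrophil-like median was −0.24 over 7 genes in place of 0.07 over 8, and with free RNA subtracted it was −0.40. No paired analysis was possible because each group has 1 library. Depth limits the members with few UMIs: Elovl6, Elovl7 and Ppargc1a reached 100 UMIs in no class.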
